A study of Mus musculus with 10 samples.

Results

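The 10 AP-1 factor genes Fos, Fosb, Fosl1, Fosl2, Jun, Junb, Jund, Atf3, Batf and Batf3 were followed through the open chromatin around them. Every peak that touched the stretch from 50 kb before to 50 kb after 1 of these genes was taken from each of the 10 peak lists, with gene positions of mouse build mm10. Overlapping peaks of all libraries were merged into elements, and 186 of the 208851 elements of the series lay in these windows. The windows of Atf3 and Batf3 overlap and share 8 elements, which were counted once in totals. The genes were chosen with earlier results of these data known.

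Open chromatin was measured by ATAC-seq, in which a transposase inserts sequencing adapters where DNA is accessible, in 2 libraries of each of 5 stages. The MEF group was embryonic fibroblasts of the C57BL/6 x 129 strain, with an OKSM cassette (Oct4, Klf4, Sox2, Myc) in Col1a1 and the M2rtTA activator in ROSA26, grown without doxycycline. The DAY3, DAY6 and DAY9 groups were the same kind of cell after 3, 6 and 9 days in embryonic stem cell medium with doxycycline (1 ug/ml) and ascorbic acid (50 ug/ml). The ESC group was the V6.5 line, of the same mixed strain and without the cassette, grown with LIF on irradiated feeder cells, whose share of the sample is not given in the sources used here. DAY6 and DAY9 cells were sorted as SSEA+ and the others were unsorted, so sorting cannot be told apart from these days, nor absence of the cassette from ESC. All groups carry 1 batch name, and no label says whether the 2 libraries of a stage came from separate animals or cultures, so spreads and p-values measure only the difference between these libraries.

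The lists held between 45497 peaks (DAY3 replicate 2) and 88980 (ESC replicate 2), and read depth is not given. At DAY3 and at DAY9 the 2 libraries were hardly further apart than counting alone would put them, so their mean stood for 1 sample at each of these days (n = 1). Of 5 fibroblast markers, the number with a peak within 2.5 kb of the gene in both libraries was 5 at MEF, 3 at DAY3 and 2 at DAY6, DAY9 and ESC alike (Prrx1 and Col1a2). Of 5 stem cell markers the numbers were 0, 0, 3, 4 and 4. Of 3 endothelial markers they were 1 or 2, of 3 blood markers 1 at each stage, and of 3 keratinocyte markers between 0 and 2. The blood marker Ptprc and the keratinocyte marker Trp63 had no peak in any library, and the endothelial marker Pecam1 had none at MEF, DAY3 or DAY6. The part that sorting, feeder cells or other cell types had in the results was not tested.

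AP-1 is a family of transcription factors that bind DNA as pairs through a leucine zipper. Jun, Junb and Jund supply the Jun side and can pair with themselves or with a Fos protein, whereas Fos, Fosb, Fosl1 (Fra-1) and Fosl2 (Fra-2) need a Jun partner. Atf3, Batf and Batf3 are related zipper proteins that pair with Jun proteins, and the BATF factors are best known from lymphocytes and dendritic cells. Fos, Jun, Junb and Atf3 are immediate early genes, which serum, growth factors or stress switch on within minutes. In fibroblasts AP-1 occupies many of the enhancers that hold the fibroblast programme.

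Of the 10 genes, 9 have a promoter in RefSeq (build GRCm38.p6), and the 250 bases before the start are shown for Jun, Fos and Junb because most of the results below turn on these windows. The 3 stretches lie at chr4:95052223-95052472 (minus strand), chr12:85473640-85473889 (plus strand) and chr8:84978749-84978998 (minus strand), each wholly inside an element that had a peak in all 10 libraries. Capitals mark a match to TGACATCA, an AP-1 and ATF type of site.
Jun: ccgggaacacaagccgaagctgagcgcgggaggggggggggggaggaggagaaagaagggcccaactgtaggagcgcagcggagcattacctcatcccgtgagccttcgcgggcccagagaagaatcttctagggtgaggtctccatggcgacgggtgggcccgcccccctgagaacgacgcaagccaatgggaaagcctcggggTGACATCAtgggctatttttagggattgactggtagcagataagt
Fos: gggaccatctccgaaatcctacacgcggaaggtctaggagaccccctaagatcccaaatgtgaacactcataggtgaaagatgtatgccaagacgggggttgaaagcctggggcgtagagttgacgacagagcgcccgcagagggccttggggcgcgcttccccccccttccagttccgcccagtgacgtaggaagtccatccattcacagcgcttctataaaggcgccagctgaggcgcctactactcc
Junb: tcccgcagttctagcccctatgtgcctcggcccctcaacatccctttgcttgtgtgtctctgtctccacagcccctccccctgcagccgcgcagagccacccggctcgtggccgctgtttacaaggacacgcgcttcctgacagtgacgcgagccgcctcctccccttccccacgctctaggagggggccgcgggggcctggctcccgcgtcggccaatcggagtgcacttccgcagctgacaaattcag
On both strands of these stretches, TGACATCA was found in 1 of the 9 promoters (Jun, from 45 to 38 bases before the start) and in 2.80% of 32619 promoters of the same length. The AP-1 site TGANTCA was found in 0 of 9 and in 6.78% of all promoters, the CRE site TGACGTCA in 0 of 9 and 1.56%, and the CArG box, the site of serum response factor, in 0 of 9 and 1.48%. The TGACATCA match overlapped none of the other motifs searched. These are letter matches in this window only.

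Peaks in the 10 windows together were fewest at DAY3 and DAY6. The MEF libraries had 112 and 103 peaks, DAY3 75 and 72, DAY6 77 and 75, DAY9 101 and 99, and ESC 109 and 96. The means were 107.5 ± 6.36 (SD, n = 2) at MEF, 73.5 at DAY3 (n = 1), 76 ± 1.41 at DAY6 (n = 2), 100 at DAY9 (n = 1) and 102.5 ± 9.19 at ESC (n = 2). The 4 values of DAY3 and DAY6 lay below the 6 others. As a percent of each list, the order was different, with 0.150% and 0.160% at MEF, 0.164% and 0.158% at DAY3, and between 0.108% and 0.130% in the 6 later libraries. With every list shortened to its 45497 highest scores, the stage means were 78, 72.5, 63.5, 70 and 59, so the high ESC count was not seen at equal list length.

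**Figure D1:**
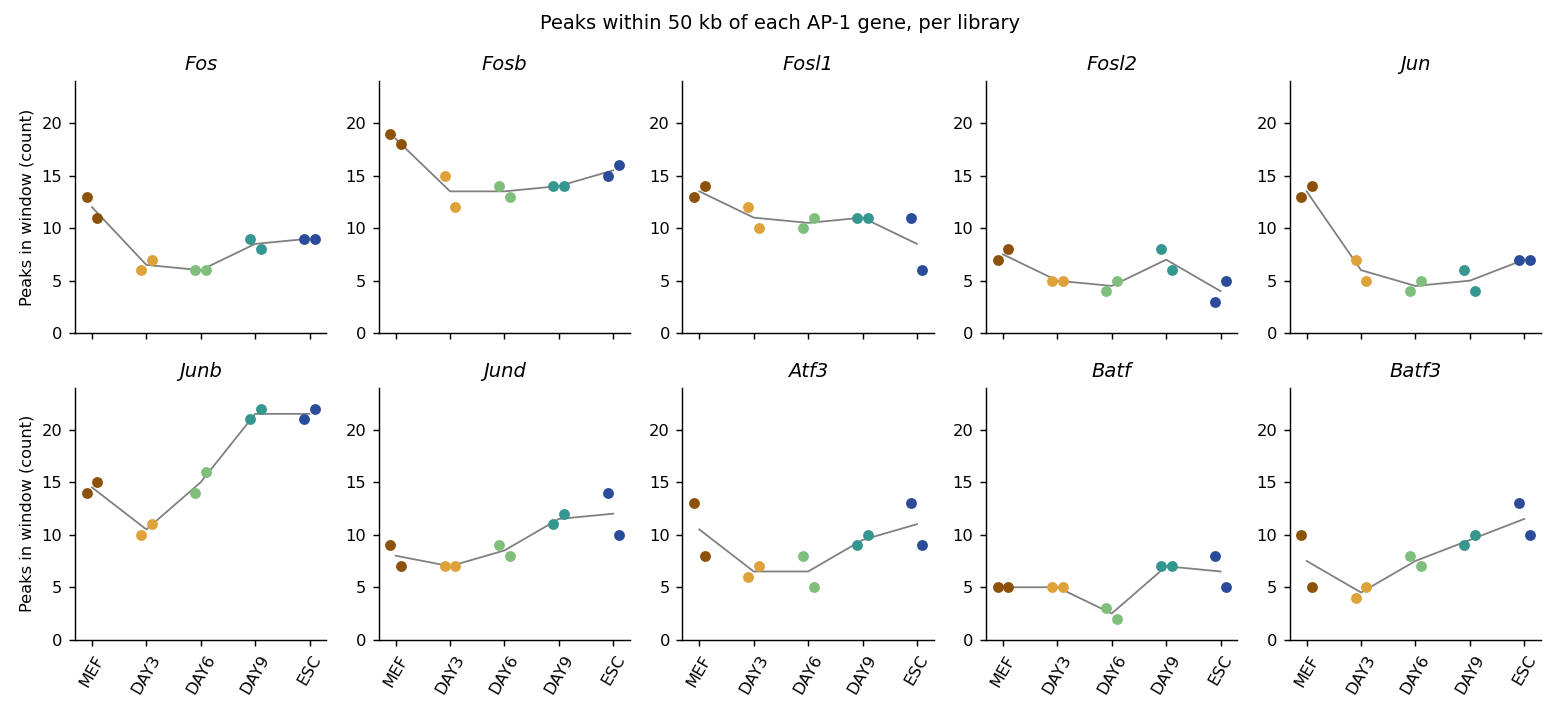
Number of peaks (vertical axis) in the window of each AP-1 gene, 1 panel per gene, by stage (horizontal axis), with 1 point per library and a line through the stage means. Jun falls from 13 and 14 peaks at MEF to between 4 and 7 later, and Junb rises from 10 and 11 at DAY3 to between 21 and 22 at DAY9 and ESC.

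An element was assigned to a stage when both of its libraries had a peak there. The windows held 75 MEF elements, 58 at DAY3, 63 at DAY6, 90 at DAY9 and 76 at ESC. Of the 186, 37 (19.9%) had a peak in all 10 libraries, against 7.35% of all elements of the series, and 21 of these 37 overlap a gene end. Gene ends are more frequent in these windows, with 16.7% of the 186 elements overlapping one, against 6.28% in the series. At the other extreme, 62 of the 186 belonged to no stage and 51 were in exactly 1 library.

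The MEF elements of the AP-1 genes closed at DAY3 more than at any other single stage, and 60% never closed. An element was closed at a stage when neither library had a peak. Of the 75, 45 (60%) never closed, having a peak in at least 1 library of every later stage, against 40.4% of the 46089 MEF elements of the series. Among the 38877 of these that lie within 50 kb of a protein-coding gene, 45.2% never closed. At DAY3 21 (28%, exact 95% binomial interval 18.2 to 39.6%) were absent from both libraries, against 47.1%, and 16 (21.3%) were absent then and never listed again, against 37.7%. Within 50 kb of a protein-coding gene these series shares were 42.6% and 33.0%. The interval counts elements as independent, although many share a window. It does not measure the spread between libraries and is no test against the series. After DAY3, 3 closed for good at DAY6, 2 at DAY9 and 3 were first absent at ESC. Another 5 closed at DAY3 and 1 at DAY6 were listed again. At DAY6 23 (30.7%; series 48.2%), at DAY9 23 (30.7%; series 49.7%) and at ESC 24 (32%; series 50.5%) were absent from both libraries. The DAY3 lists are the shortest, and at equal list lengths the later stages held more of the closures. Of 62 MEF elements 35 then never closed, 12 closed for good at DAY3, 6 at DAY6, 2 at DAY9 and 5 at ESC. The share absent from both libraries was then 21.0% at DAY3, 30.6% at DAY6, 35.5% at DAY9 and 40.3% at ESC, against 37.3%, 45.1%, 49.8% and 51.8% in the series.

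Elements that overlap an end of any gene, either its start or its finish, were kept more often than the rest. Of the 75, 24 (32%) lie at a gene end, against 21.4% of MEF elements in the series, and none of the 24 ever closed, where 94.6% of the MEF elements at gene ends in the series never did. Among the 51 away from gene ends 21 (41.2%) never closed, against 25.6% of such elements in the series, and 16 (31.4%) closed for good at DAY3, against 47.6%. Those 16 had a median width of 542.5 bp and a median MEF fold of 4.80, and the 21 that never closed and also lie away from gene ends 928 bp and 5.99. No test was made of the differences from the series.

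**Figure D2:**
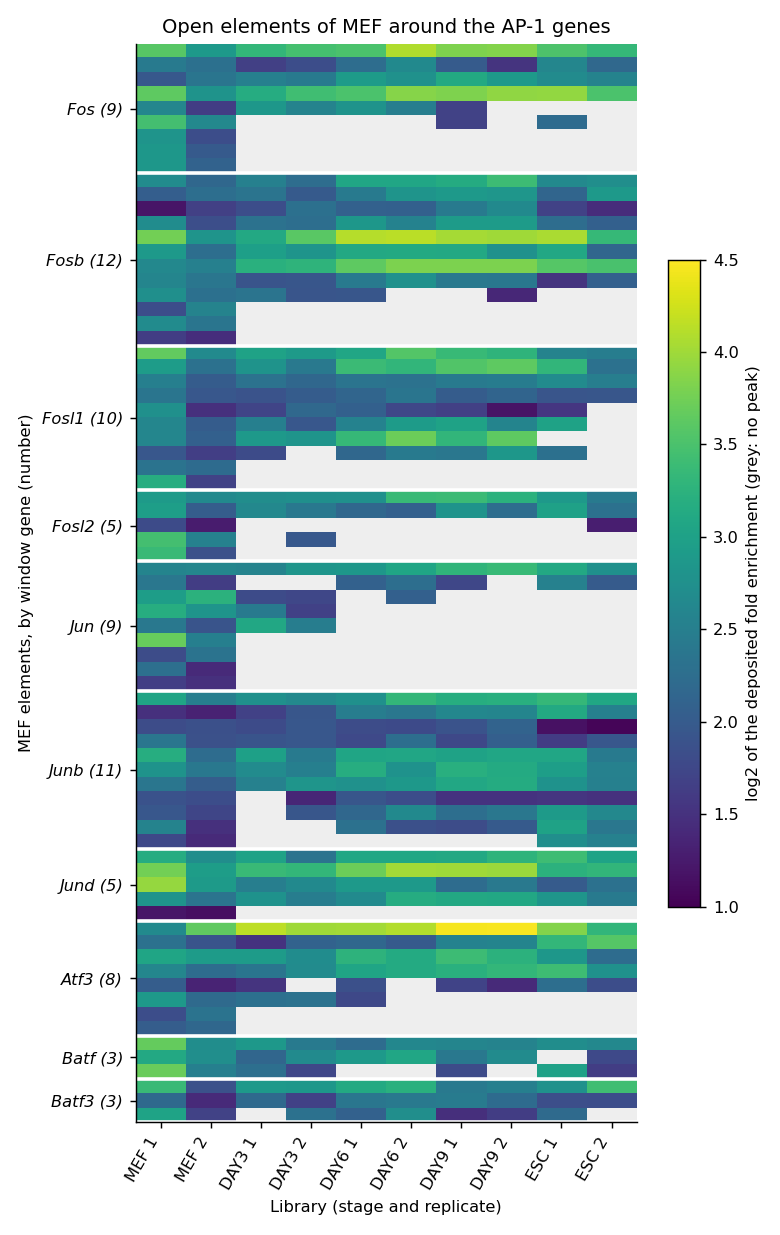
The 75 MEF elements of the AP-1 windows, by gene (vertical axis, number of elements in brackets) and library (horizontal axis). Colour gives log2 of the authors' fold enrichment and grey means no peak. The 2 MEF elements shared by Atf3 and Batf3 are drawn under Atf3, so Batf3 shows 3 of its 5. Jun has the emptiest block after MEF, and the Junb block stays nearly full.

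The mean share of MEF elements with a peak was 68% at DAY3 (n = 1), 66.7% ± 1.89 at DAY6 (SD, n = 2), 66.0% at DAY9 (n = 1) and 63.3% ± 2.83 at ESC (n = 2). The 8 libraries ranged from 61.3% to 69.3%, and the DAY3, DAY6 and DAY9 libraries overlapped. At equal list lengths the values were 75.8% (n = 1), 66.9% ± 1.14 (SD, n = 2), 63.7% (n = 1) and 54.0% ± 1.14 (SD, n = 2) of 62 elements, and in the whole series 58.7%, 51.5%, 48.6% and 44.5%. The AP-1 share was above that of the series at each stage in both ways of counting.

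**Figure D3:**
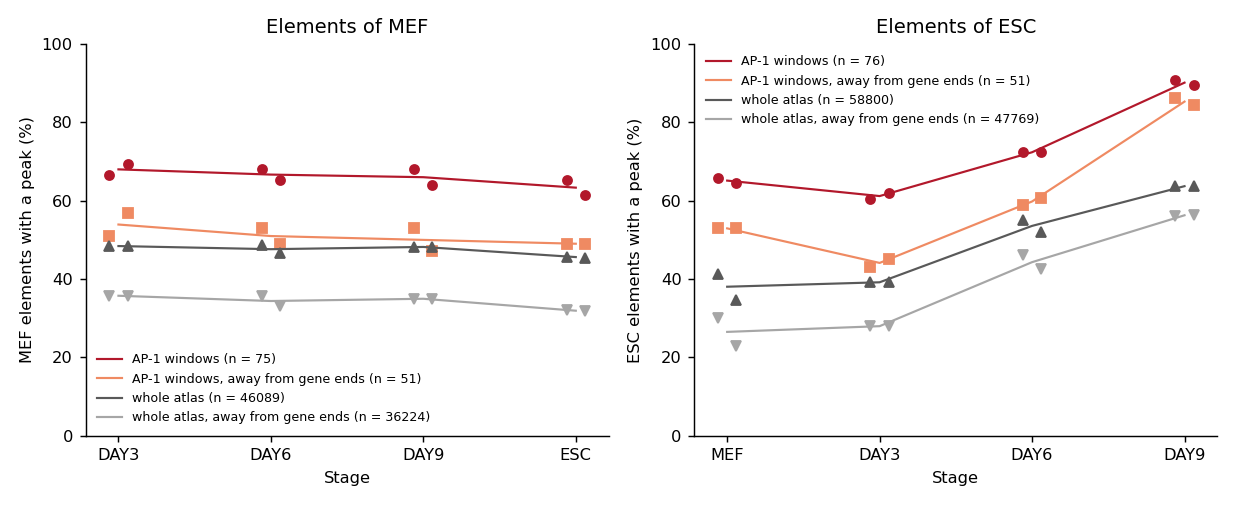
Percent of MEF elements (first panel) and of ESC elements (second panel) with a peak (vertical axis) by stage (horizontal axis), for the AP-1 windows and the whole series, each with all elements and with those away from gene ends; points are libraries and lines join stage means. The AP-1 points lie above those of the same kind of element in the series at every stage, and ESC elements reach 90.1% at DAY9.

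Seen from the other side, most of the 76 ESC elements of the AP-1 windows were there before. A peak was listed at MEF for 65.1% ± 0.93 (SD, n = 2) of them, 61.2% at DAY3, 72.4% ± 0 at DAY6 (n = 2) and 90.1% at DAY9. In the series (58800 ESC elements) the values were 38.0%, 39.2%, 53.6% and 63.7%. ESC elements absent from both MEF libraries numbered 21 of 186 (11.3%; series 15.9%), which is 27.6% of the 76 ESC elements, against 56.6% in the series. Of the ESC elements of the series within 50 kb of a protein-coding gene, 50.7% were absent from both MEF libraries. Away from gene ends the share absent was 39.2% of 51 ESC elements in the AP-1 windows and 67.6% of 47769 in the series. Of the 21, 2 were first in both libraries at DAY3, 2 at DAY6, 11 at DAY9 and 6 at ESC. The share first in both at DAY9 was 52.4%, against 15.7% in the series, and 28.6% appeared at ESC, against 60.9%.

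Step by step, the AP-1 windows gained a smaller share than the series except at DAY9, where with the full lists they gained a larger one. Between MEF and DAY3, 4 of 186 were gained, or 2.15% (series 5.43% of elements), and 21 lost, or 11.3%, near the 10.4% of the series. Between DAY3 and DAY6, 5 were gained, or 2.69% (5.29%), and 4 lost, or 2.15% (1.5%). Between DAY6 and DAY9, 20 of 186 were gained, or 10.8% (series 5.39%), and 0 lost (0.956%). Between DAY9 and ESC, 6 were gained, or 3.23% (9.1%), and 13 lost, or 6.99% (9.24%). Of the DAY9 gains 6 lay at Junb, 3 at Atf3 and 3 at Batf, and only Fosl1 had 0. The DAY9 gains changed with list length: at equal lengths there were 8 of 128 (6.25%; series 3.51%), and with the top 50% of each list 6 of 113 (5.31%; series 6.10%). Only 8 elements (series 9.61% of elements) belonged to DAY3, DAY6 or DAY9 and had no peak at either end of the course, and all 8 were in both DAY9 libraries.

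Jun, the best known member of the Jun side, lost more of its MEF elements than any other of the 10 genes, 7 of 9 by ESC. Its window held 13 and 14 peaks in the MEF libraries, 7 and 5 at DAY3, 4 and 5 at DAY6, 6 and 4 at DAY9, and 7 and 7 at ESC. Both MEF libraries were above all 8 later ones. At equal list lengths MEF had 9 and 10 peaks, and the later libraries between 2 and 7. Of the 9 elements with a peak in both MEF libraries, 5 had none in either DAY3 library and 7 had none in either ESC library. By DAY9, 8 of the 9 had closed at some stage, and 1 of these was listed again later.

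The Jun start itself was open in all 10 libraries. The element at chr4:95051498-95053633, over the start of Jun, had fold enrichments of 5.96 and 6.11 at MEF, 5.92 and 7.10 at DAY3, 7.24 and 8.29 at DAY6, 9.74 and 10.2 at DAY9, and 8.61 and 6.77 at ESC. These folds are the authors' values, summit over local background, and libraries of different depth are not compared on them. The promoter with the capital TGACATCA lies in this element.

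Of its 9 MEF elements, 5 closed at DAY3, 1 of them listed again later, 2 at DAY6 and 1 at DAY9, and 1 never closed. The 3 strongest away from the start differed in when they closed. The element at chr4:95001005-95001938, centred 50.75 kb downstream of the start, had folds of 12.9 and 5.69 at MEF and no peak in any later library. Nearer, the element at chr4:95032558-95033120, 19.4 kb downstream, had folds of 9.06 and 7.05 at MEF and 5.39 and 3.19 at DAY3, and no peak from DAY6 on. The one at chr4:95025873-95026615 and 26.0 kb downstream, had folds of 7.70 and 9.51 at MEF, 3.49 and 3.35 at DAY3, and 4.21 in 1 of the 2 DAY6 libraries, and none afterwards. The 3 thus closed at DAY3, DAY6 and DAY9. Other elements opened, and of these chr4:95075332-95076824, 23.9 kb upstream, had peaks in both DAY9 libraries (folds 4.65 and 6.24) and both ESC libraries (4.91 and 4.17), and in none before. A small one inside Jun, chr4:95050493-95050962, had peaks only in the 2 ESC libraries, with folds of 2.20 and 1.92.

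**Figure D4:**
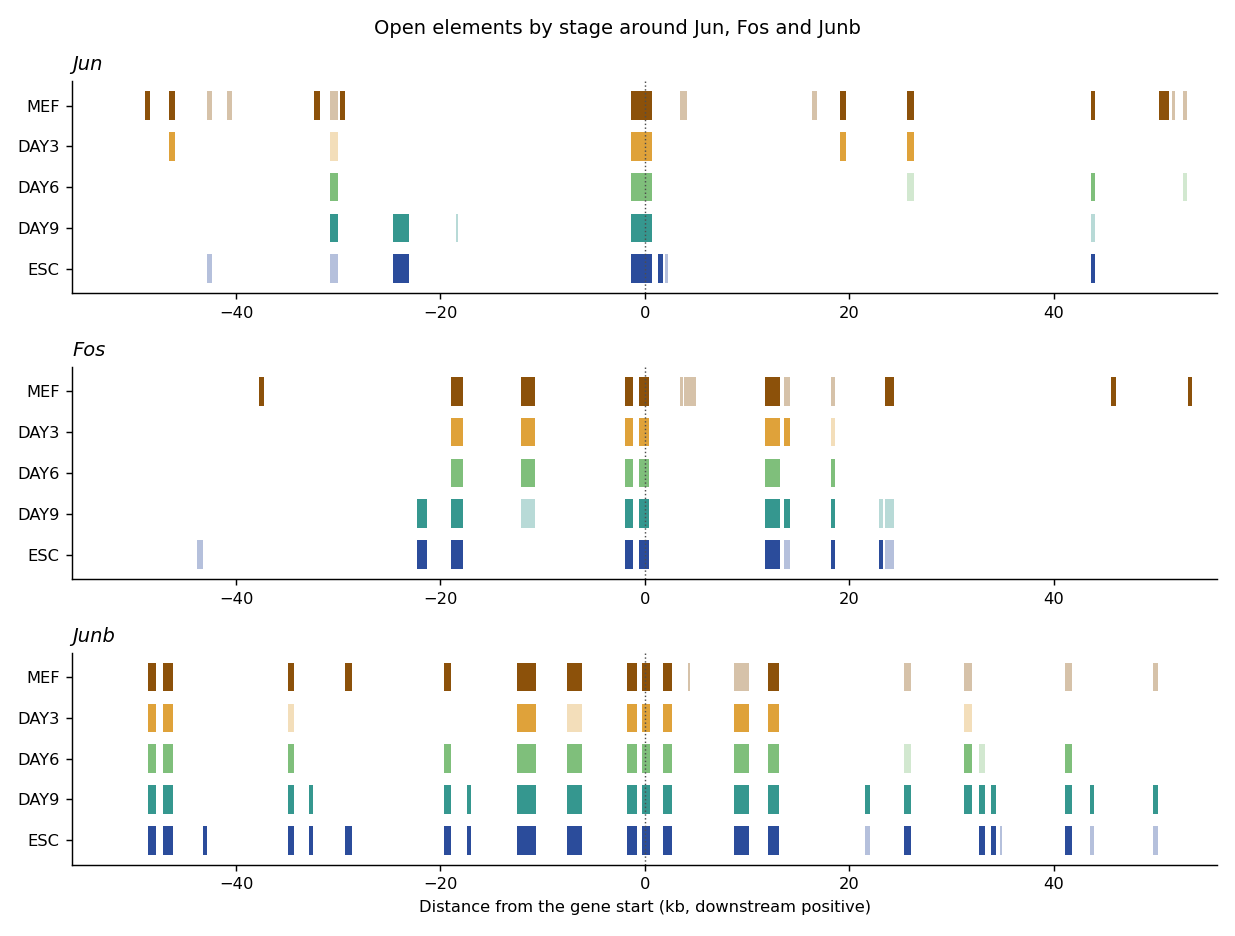
Elements around Jun, Fos and Junb: the horizontal axis is the distance from the gene's start in kb along the gene's direction, and the vertical axis the stage; dark blocks had a peak in both libraries and pale blocks in 1. The start is open at every stage, elements away from the Jun start disappear after MEF, and the Junb window fills from DAY6 to DAY9.

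Fos, the immediate early partner of Jun, lost 4 of its 9 MEF elements by ESC. Its window held 13 and 11 peaks at MEF, 6 and 7 at DAY3, 6 and 6 at DAY6, 9 and 8 at DAY9, and 9 and 9 at ESC. Both MEF libraries were above all later ones, and the DAY3 and DAY6 libraries were below those of DAY9 and ESC. At equal list lengths MEF had 11 and 10 peaks, and the later libraries, between 5 and 7, overlapped one another. Of 9 MEF elements, 4 never closed, 4 closed at DAY3, of which 1 was listed again, and 1 closed at ESC.

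The start of Fos (chr12:85473287-85474334) was open in all 10 libraries, with folds from 3.91 (MEF replicate 1) to 8.74 (DAY9 replicate 1). So were a distal element 18.4 kb upstream, chr12:85454875-85456126, with folds from 7.34 to 16.9, and one 12.4 kb downstream, chr12:85485589-85487088, with folds from 6.96 to 15.3. The element 23.9 kb downstream, chr12:85497398-85498216, had folds of 11.0 and 6.20 at MEF and no peak at DAY3 or DAY6. It was listed again in 1 library of DAY9 (3.24) and 1 of ESC (4.68). A further one, upstream at chr12:85461718-85463088 and named after its values were seen, was open in all libraries up to DAY6 and in 1 DAY9 library (3.24), and was the one that closed at ESC. A neighbour of the downstream element at chr12:85496761-85497173 had peaks in 1 DAY9 and both ESC libraries and in none before, and chr12:85451604-85452591, 21.8 kb upstream, had peaks in both DAY9 and both ESC libraries only.

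Fosb, a second immediate early Fos gene, kept most of its MEF elements. Its window held 19 and 18 peaks at MEF, 15 and 12 at DAY3, 14 and 13 at DAY6, 14 and 14 at DAY9, and 15 and 16 at ESC. The MEF libraries were above all others, by 2 peaks at the least. At equal list lengths they were not, with 12 and 15 peaks at MEF, 14 and 12 at DAY3, and 12 and 13 at DAY6. Of 12 MEF elements 8 never closed, 3 closed at DAY3 and 1 at ESC. The 4 that the naming rule picked, at the start (chr7:19309828-19310640) and 9.87, 16.9 and 35.1 kb upstream, were open in all 10 libraries, the last 0.436 kb from an end of the repair gene Ercc1.

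Fosl1, a Fos gene known for slower and longer lasting induction than Fos, had 13 and 14 peaks at MEF, 12 and 10 at DAY3, 10 and 11 at DAY6, 11 and 11 at DAY9, and 11 and 6 at ESC. Only the second ESC library lay well below the others. At equal list lengths both ESC libraries did, with 5 and 4 peaks against between 9 and 13 at the other stages. Of its 10 MEF elements 7 lie at a gene end, mostly of neighbours, and 7 never closed. The element at the lower end of Fosl1, chr19:5447260-5448226, had no peak in DAY3 replicate 2 and ESC replicate 2. The reference has no strand for this gene. The element at chr19:5444773-5445605, 2.09 kb from Fosl1, had folds of 9.09 and 3.22 at MEF and no later peak. In the other direction, chr19:5463706-5464284 in Fibp had peaks in all 6 libraries from DAY6 on and in none before.

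Fosl2, the remaining Fos gene, had 7 and 8 peaks at MEF, 5 and 5 at DAY3, 4 and 5 at DAY6, 8 and 6 at DAY9, and 3 and 5 at ESC. The DAY9 libraries overlapped those of MEF and the others did not. At equal list lengths MEF had 5 and 6 peaks and DAY3 5 and 5, so these overlapped, and the later libraries had between 2 and 4. Its start (chr5:32134904-32136516) was open in all 10 libraries. The elements at chr5:32191926-32192735, 55.9 kb downstream, and chr5:32088990-32089916, 47.0 kb upstream, had MEF folds of 11.0 and 5.83 and of 10.3 and 3.65. The upstream one had no later peak, and the downstream one had a peak in 1 DAY3 library (3.89) and none after. Between them, chr5:32182983-32184203, 47.1 kb downstream, opened at DAY3 (folds 4.68 and 4.40) and had peaks in all 8 libraries from then on, up to 14.3 at DAY9.

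Junb, a Jun protein often set against Jun in growth control, had more peaks at DAY9 and ESC than at MEF, most of which depended on list length. Its window held 14 and 15 peaks at MEF, 10 and 11 at DAY3, 14 and 16 at DAY6, 21 and 22 at DAY9, and 21 and 22 at ESC. The 4 DAY9 and ESC libraries were above the other 6. At equal list lengths the counts were 9 and 11 at MEF, 10 and 11 at DAY3, 12 and 12 at DAY6, 12 and 11 at DAY9, and 11 and 15 at ESC, where MEF and DAY9 overlapped. Of 11 MEF elements none was absent at ESC and 9 never closed, and the 2 that closed at DAY3 were listed again. The start (chr8:84978264-84979018) had folds from 2.07 (ESC replicate 2) to 4.31 (DAY9 replicate 2). The naming rule's 3 other MEF elements lie 12.6 kb downstream (chr8:84965620-84966669, in Rnaseh2a) and 11.6 and 46.7 kb upstream (chr8:84989405-84991240 in Hook2 and chr8:85024954-85025899 in Get3), and all were open in 10 of 10 libraries. Gained ones included chr8:84944383-84944876 and chr8:84945514-84946076, both in the kinase gene Mast1. The first had peaks in both DAY9 libraries (2.98 and 4.06) and both ESC libraries (5.13 and 4.41), and the second also in 1 DAY6 library (3.61).

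Jund, the Jun gene that is expressed at a steady level in most cells, had 9 and 7 peaks at MEF, 7 and 7 at DAY3, 9 and 8 at DAY6, 11 and 12 at DAY9, and 14 and 10 at ESC. The DAY9 and ESC libraries were above the rest. At equal list lengths they were not all so. Jund then had 5 and 5 peaks at MEF, 7 and 7 at DAY3, 7 and 8 at DAY6, 9 and 8 at DAY9, and 9 and 5 at ESC. Of 5 MEF elements 4 never closed, and the element nearest the start (chr8:70698231-70699778, 0.492 kb inside the gene) was open in all 10 libraries. The element at chr8:70681977-70682814, 15.3 kb upstream, was also open in all, with folds of 15.5 and 7.50 at MEF and 4.02 and 4.92 at ESC. Beside it, chr8:70681274-70681856, 16.2 kb upstream, had peaks in each of the 6 DAY3, DAY6 and DAY9 libraries, with folds from 5.09 to 8.97, and in no MEF or ESC library. It is the 1 element of the 186 with that pattern, which 1.69% of all elements of the series had. Elements 5.95 kb upstream (chr8:70691410-70692163) and 32.5 kb downstream (chr8:70729876-70730587, in Pde4c) had peaks in both DAY9 and both ESC libraries and in no MEF library.

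Atf3 is induced by stress and often represses its targets, and Batf3 lies next to it. The Atf3 window held 13 and 8 peaks at MEF, 6 and 7 at DAY3, 8 and 5 at DAY6, 9 and 10 at DAY9, and 13 and 9 at ESC. The Batf3 window held 10 and 5, 4 and 5, 8 and 7, 9 and 10, and 13 and 10. In both windows the MEF libraries lay 5 peaks apart, and only the DAY3 libraries at Atf3 did not overlap them. At equal list lengths the DAY3 libraries at Atf3 (5 and 7) did overlap MEF (8 and 7), and DAY6 (4 and 4) did not. At Batf3, MEF (5 and 4) was then below DAY6, DAY9 and ESC, whose libraries had 6 or 8. Of 8 MEF elements of Atf3, 5 never closed, 2 closed at DAY3 and 1 at DAY9, and of the 5 of Batf3 none closed. Both starts (chr1:191182315-191183917 and chr1:191097492-191098806) were open in all libraries, and so was chr1:191120780-191121289, which lies in both windows, with folds from 6.39 at MEF replicate 1 to 22.1 at DAY9 replicate 2. The element that closed at DAY9, chr1:191215871-191216805, 33.0 kb upstream of Atf3, had folds of 7.35 and 4.61 at MEF, 4.92 and 5.00 at DAY3 and 3.37 in 1 DAY6 library. Also in both windows, chr1:191153052-191153564 had peaks in 1 DAY6 library, both DAY9 and both ESC libraries, and in none before.

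Batf had no element at its start. Its window held 5 and 5 peaks at MEF, 5 and 5 at DAY3, 3 and 2 at DAY6, 7 and 7 at DAY9, and 8 and 5 at ESC. DAY6 was lowest and did not overlap any other stage. At equal list lengths it overlapped ESC, with 2 and 2 peaks at DAY6 and 5 and 1 at ESC. The nearest element to the start, chr12:85698047-85698674, lies 11.3 kb inside Batf and had peaks in every library but ESC replicate 1. A second one inside Batf, chr12:85705156-85706142, had folds of 12.9 and 5.68 at MEF and 4.84 and 3.35 at DAY3, no peak at DAY6, 3.48 in 1 DAY9 library, and 8.03 and 3.10 at ESC.

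The number of peaks per window was tested for every gene of the series with limma on log2(peaks + 1), with 42383 genes tested and Benjamini-Hochberg adjustment over all of them. A gene was called at an adjusted p under 0.05, and all fold changes are on that log2 scale. At DAY6 2 AP-1 genes were called lower than at MEF, Jun and Fos, against 3.83% of all genes lower, and 0 higher, against 2.8%. At ESC 1 was called lower, Jun, against 4.1%, and 0 higher, against 16%. At DAY3 and DAY9 the arm is 1 sample, assumed to vary like the other stages, so these contrasts have little power. At DAY3 0 genes of any kind were called (0% of all genes in either direction), and at DAY9 0 AP-1 genes (0.139% of all higher, 0.0189% lower). With all 10 libraries as samples limma called 9165 and 10289 genes there, with Fos, Jun and Junb lower at DAY3, Jun lower and Junb higher at DAY9. Before adjustment, p was under 0.05 for 2, 5, 2 and 5 of the 10 at DAY3, DAY6, DAY9 and ESC, where 21.3%, 26.6%, 23.1% and 36.6% of all genes were.

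For Jun the log2 change was −1.05 at DAY3 (limma adjusted p = 0.0816), −1.40 ± 0.21 (SE) at DAY6 (adjusted p = 0.0250), −1.27 at DAY9 (adjusted p = 0.0545) and −0.86 ± 0.21 at ESC (adjusted p = 0.0252). For Fos it was −0.79 at DAY3 (limma adjusted p = 0.112), −0.89 ± 0.19 at DAY6 (adjusted p = 0.0379), −0.45 at DAY9 (0.290) and −0.37 at ESC (0.196). Junb had 0.54 at DAY9 (limma adjusted p = 0.176; 0.19 at equal list lengths) and 0.54 ± 0.17 at ESC (limma adjusted p = 0.0587) and did not pass. Over all genes the median change was −0.33, 0, 0.25 and 0.28 at the 4 stages, and over the 10 AP-1 genes −0.46, −0.52, −0.09 and −0.08. Scaling by list length moved the median of all genes to 0.26, 0.16, 0.08 and −0.06. With that scaling, Jun (−1.20) and the 4 Fos genes were called lower at ESC, where 8300 of 42383 genes were called in either direction. The 4 Fos genes lay between −0.58 (Fosb) and −1.14 (Fosl2), and no AP-1 gene was called higher. The DAY6 calls of both genes were lost when either DAY6 or either ESC library was left out, and the Jun calls at DAY6 and ESC also without either MEF library, with Jun's ESC call lost without either ESC library too (limma adjusted p from 0.0505 to 0.142 over these fits). Windows of 20 kb gave Jun −1.03 at DAY6 (limma adjusted p = 0.129) and −0.16 at ESC (0.702), and windows of 100 kb −0.22 at both (0.516 and 0.442).

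**Figure D5:**
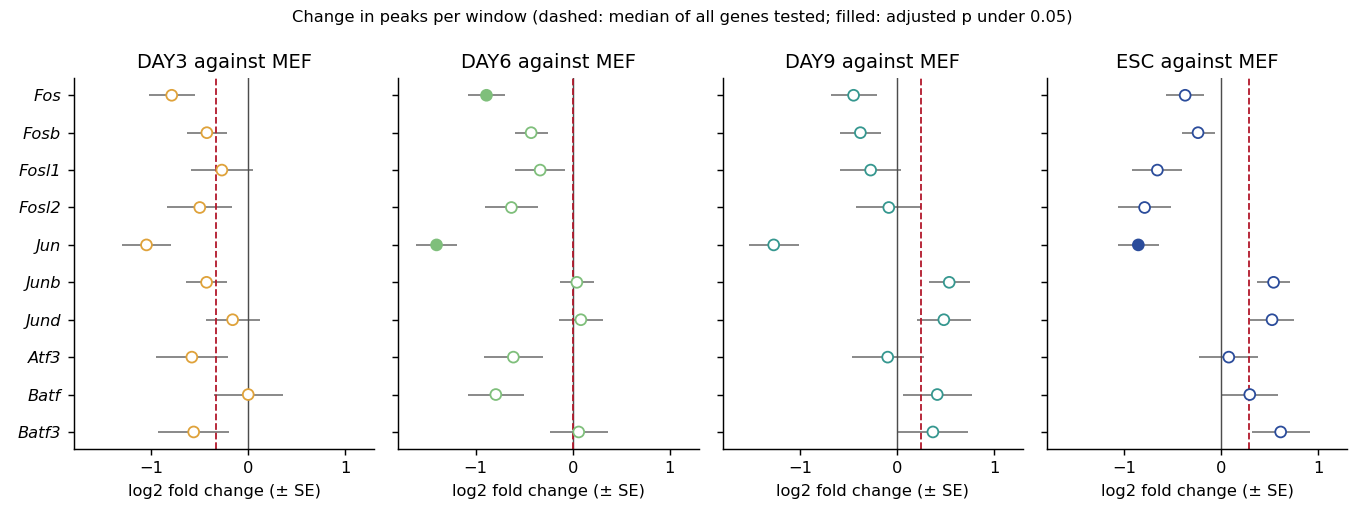
Change in log2(peaks + 1) per window against MEF (horizontal axis, ± SE from limma) for each AP-1 gene (vertical axis), 1 panel per stage, with the median of all genes dashed. Filled points were called: Jun and Fos at DAY6 and Jun at ESC.

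Around AP-1 stand its other dimer partners, the kinases and serum factors upstream and its known target genes, taken as lists with earlier results of these data known. Against these counts stand 2.8% of all genes higher and 3.83% lower at DAY6, and 16% higher and 4.1% lower at ESC. Among 13 dimer partners 0 were higher and 1 lower at DAY6, Bach1 (log2 change −0.80), a repressor that competes with Nfe2l2, and 0 were called at ESC. Among 16 upstream genes 1 was lower at DAY6, Mrtfa (−2.04), an actin-regulated coactivator of serum response factor. At ESC 2 of the 16 were lower, Mrtfa (−0.88) and its relative Mrtfb (−1.20), and 1 higher, Mapk8 (0.99), the kinase JNK1 that phosphorylates Jun. From the target list, which has 15 genes, the chemokine Ccl2 was lower at DAY6 (−1.71). Lower at ESC were Ccl2 (−2.53), the hyaluronan receptor Cd44 (−1.57) and the protease Plau (−0.92). None was called higher. The limma adjusted p of these calls lay between 0.00659 and 0.0460, and no gene of the lists was called at DAY3 or DAY9. Median changes at ESC were 0.25 in the partner list and 0.28 in the upstream list, against 0.28 over all genes. These are counts of accessible elements, and say nothing of how much of any mRNA was made.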

How the data were processed

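ATAC-seq peaks of 10 mouse libraries were used, 2 per stage. The authors deposited 1 peak list per library, without a header. The submitters' processing notes name Bowtie2 2.3.2, MACS2 2.1.1, deepTools 2.3.6 and build mm10, with no role or order. The ratio in the authors' lists is the fold enrichment of a summit over local background, the −log10 p- and q-values were deposited beside it with no p-value weaker than 5 on that scale, and the deposited score is 10 times −log10 p, rounded down. Peak numbers in the deposited lists have gaps, so peaks had been removed by a rule not given in the sources used here, nor are duplicate handling and the transposase offset. Differences in depth and list length move the number of peaks.

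Peaks that overlapped by at least 1 bp were merged into elements in Python 3.11.15 with pandas 2.3.3. Genes and promoters came from RefSeq tables (GRCm38.p6). For genes with a mean of at least 1 peak per sample, limma 3.58.1 (R 4.3.3; trend and robust) was fitted on log2(peaks + 1) over 8 samples, leaving 3 residual degrees of freedom, since the DAY3 and DAY9 pairs counted as 1 sample each. Some windows had nearly equal counts in replicate libraries, and limma moved their near-zero variances away from zero. Tested on simulated data matched to the replicate spread, this fit had low power in windows with few peaks, and on data with much less spread than that it gave false calls. The 95% interval given for the share of MEF elements without a DAY3 peak is exact (Clopper-Pearson), from scipy 1.17.1.

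Elements named are, per gene, the one at or nearest the start, up to 3 other MEF elements with the highest MEF fold, up to 2 ESC elements absent from MEF, and elements of DAY3, DAY6 and DAY9 only. Genes, lists and tests were chosen with earlier results of these data known. Replicate numbers did not pair the samples. Alternatives changed the window, the list length, the peak threshold, the overlap and merging rules, the pseudocount, the filter, the scaling, the number of samples, the replicate block and each library. One item of the target gene list is not reported here.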

Additional observations from a re-analysis of the deposited data

How the results depend on the processing

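The files hold no read depth, so an absent peak can be a closed element or one below the threshold of a shallower library. The commonest background level, worked out from the deposited folds and p-values, was 3.45 and 2.33 at DAY6 and 7.33 and 7.37 at DAY9. The other libraries ran from 3.415 (MEF replicate 1) to 8.322 (MEF replicate 2). The part of this difference in the DAY9 gains was not tested. Of the single gene values under the alternatives, 652 had the same sign and the same call, 40 changed sign, 42 passed the threshold only in the alternative and 26 only in the reported fit. Jun was called lower at DAY6 in 9 of 19 alternatives and at ESC in 11 of 19, and Fos at DAY6 in 11 of 19. Junb was called higher at ESC in 4 of 19: windows of 100 kb, no filter and both fits of 10 libraries. These counts include the fits without a DAY3 or DAY9 library, which leave the DAY6 and ESC changes as they were. No such call of Jun or Fos held with windows of 20 or 100 kb, lists of equal length or the top 50% of each list. The 40 that changed sign passed no threshold in the reported fit or in the alternative. The cause of the changes below was not tested.

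With windows of 20 kb, 15.8% of MEF elements lacked a DAY3 peak, 77.6% had an ESC peak and 69.8% of ESC elements had a MEF peak. The mean numbers of peaks were then 54, 43.5, 43.5, 51.5 and 55.5 at MEF, DAY3, DAY6, DAY9 and ESC. In that setting 1 AP-1 gene was called at DAY6 (Batf, lower) and 0 at ESC. Among all 34831 genes the calls, in either direction, were 2316 and 3567. With 100 kb, 67.4% of MEF elements had an ESC peak, and the numbers of peaks from DAY3 on were 118.5, 135, 170.5 and 171.5. Of the AP-1 genes 1 was called at DAY6 (Fosl2, lower) and 2 at ESC (Fosl2 lower, Junb higher). Among all 46504 genes the calls were 3955 and 12428. With lists of equal length, 54.0% of MEF elements had an ESC peak and 76.7% of ESC elements had a MEF peak. ESC then had 59 peaks, and 8 elements were gained at DAY9. Of the AP-1 genes 1 was called at DAY6 (Atf3, lower) and 2 at ESC (Fos and Fosl1, lower). Among all 38178 genes the calls were 2955 and 4877. With the top 50% of each list, 18% of MEF elements lacked a DAY3 peak, 72.0% of ESC elements had a MEF peak, and the numbers of peaks were 63 at MEF, 49 at DAY6, 60.5 at DAY9 and 56.5 at ESC. In that setting 6 elements were gained at DAY9, and 0 AP-1 genes were called at DAY6 and 2 at ESC (Fosl1 lower, Batf3 higher). Among all 35566 genes the calls were 2741 and 4420. When a peak had to cover 50% of the element, 48.2% of MEF elements had an ESC peak and 54.4% of ESC elements a MEF peak. When a peak in 1 library was enough to put an element in a stage, 46.0% of MEF elements lacked a DAY3 peak, 49.6% had an ESC peak and 52.6% of ESC elements had a MEF peak. With no filter, 1 gene was called at DAY9 and 2 at ESC, and with counts scaled by list length 1 and 5. The ESC calls with no filter were Jun lower and Junb higher, where 7139 of 49550 genes were called.

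Log2 changes with the opposite sign were as follows. With 20 kb they were Jund 0.16 at DAY3, Batf3 −0.13 at DAY6, Fosl2 0.17, Atf3 0.37, Batf −0.26 and Batf3 −0.29 at DAY9, and Fosb 0.076 at ESC. With 100 kb they were Batf3 −0.31 at DAY6, Fosb 0.18 and Fosl1 0.11 at DAY9, and Fosb 0.080 and Atf3 −0.013 at ESC. At equal lengths they were Junb 0.070 and Jund 0.42 at DAY3 and Batf −0.21 at ESC. With the top 50% they were Jund 0.55 and Batf3 0.015 at DAY3, Fosb 0.12, Fosl1 0.0020 and Atf3 0.15 at DAY9, and Batf −0.21 at ESC. Scaled by list length, they were Fosb 0.17, Fosl1 0.32, Fosl2 0.096, Junb 0.17, Jund 0.44, Atf3 0.014 and Batf3 0.033 at DAY3, and Atf3 −0.27 and Batf −0.051 at ESC. Leaving out 1 library, the range was −0.047 to 0.13 for Junb, −0.076 to 0.25 for Jund and −0.37 to 0.50 for Batf3 at DAY6. It was −0.28 to 0.085 for Fosl2, −0.42 to 0.22 for Atf3 and −0.067 to 0.81 for Batf3 at DAY9, and −0.24 to 0.39 for Atf3 at ESC.

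With all 10 libraries as samples, 3 AP-1 genes were called at DAY3 (Fos, Jun and Junb, lower), 2 at DAY9 (Jun lower, Junb higher) and 4 at ESC (Jun, Fosl1 and Fosl2 lower, Junb higher). Among all genes the calls were 0, 2808, 67 and 8529 at DAY3, DAY6, DAY9 and ESC as reported, and over the alternatives they ran from 0 to 9165, 0 to 6665, 0 to 10289 and 2124 to 12730. The replicate block was fitted on the 10 libraries and gave the same numbers, 3 at DAY3, 3 at DAY6, 2 at DAY9 and 4 at ESC. The replicate numbers did not pair the samples, since same-numbered libraries of 2 stages had correlations of their deviations between -0.060 and 0.020 over 10 pairs of stages.

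Leaving out 1 library at a time, MEF elements without a DAY3 peak ranged from 30.7% to 43.0% and those with an ESC peak from 52.8% to 65.3%. ESC elements with a MEF peak ranged from 55.9% to 65.8%, MEF elements never closed from 45.8% to 60%, and DAY9 gains from 24 to 25. In the series the never closed share ranged from 30.0% to 39.9%. Without a DAY6 or DAY9 library that stage rested on 1 library, and gained shares rose in the series too. They were then 12.9% to 13.4% in the AP-1 windows and 7.77% to 9.21% in the series, against 10.8% and 5.39% with all libraries. The number of genes called ranged from 0 to 1 at DAY3, 0 to 2 at DAY6, 0 to 1 at DAY9 and 0 to 1 at ESC. Where a stage kept 1 library, that library was assumed to vary like the other groups. The lowest share never closed was found without MEF replicate 2. Leaving out libraries for the never closed share, the DAY9 gains and the numbers of peaks, and the first 2 of these at equal list length or the top 50% of each list, and the stage of closing at equal list length, were alternatives chosen after seeing the data.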
